A study of Mus musculus with 6 samples.

Results

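Potassium channel genes were taken as the genes on the array whose single annotated symbol starts with Kcn, leaving out 1 such symbol, with the brightest probe standing for each gene. They numbered 91 of the 19938 genes measured, 88 of which encode channel subunits or regulators of them, while 3 are transcripts from the strand opposite a channel gene. N2A cells, a mouse neuroblastoma line, had been transiently transfected with an shRNA construct against the pseudogene Pbcas4, driven by a U6 promoter, or with a scramble construct in the same vector, and RNA was harvested 72 h later. There were 3 arrays for the Pbcas4 shRNA and 3 for the scramble, labelled as numbered replicates, and all cells had thus been through transfection with a construct. The annotation names no probe for Pbcas4, so its own level was not analysed here, and nothing in these data measures how far it was reduced. The paper measured its decrease by quantitative PCR. Values are the deposited log2 signals, on which a difference of 1 means a doubling.

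Potassium channels let potassium ions leave the cell and so set its resting potential and bring it back to rest after an action potential. Voltage-gated subunits open on depolarization, calcium- and sodium-activated subunits respond to those ions inside the cell, inward rectifiers hold the cell near rest, and two-pore-domain subunits carry a background leak. Auxiliary subunits bind the pore-forming ones and alter their gating or their delivery to the membrane. Neuroblastoma cells, which derive from the sympathetic lineage, are known to carry several of these currents.

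The arrays were alike in scale, with medians between 7.75 and 7.86, and no pair of arrays was identical. Of 12 markers of sympathetic neuroblasts 10 were measured, and 10 were above background, with mean signals of 11.67 to 11.87 in shRNA arrays and 12.16 to 12.43 in scramble arrays. Glial markers averaged 7.08 to 7.32 in shRNA and 7.17 to 7.30 in scramble arrays, with 3 of 7 above background. Fibroblast markers averaged 7.63 to 7.73 in shRNA and 7.32 to 7.64 in scramble arrays, with 5 of 6 above background, and muscle markers 8.14 to 8.46 in shRNA and 8.07 to 8.25 in scramble arrays, also with 5 of 6. Genes of cell division averaged 12.51, 12.37 and 12.35 in shRNA arrays and 12.41, 11.61 and 11.13 in scramble arrays, so that scramble replicate 1 lay with the shRNA arrays. Across all probes scramble replicate 1 also correlated more closely with the shRNA arrays than with either other scramble array. In such bulk samples, fewer cells of a type and less RNA per cell cannot be told apart.

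A background line was drawn at a signal of 7.20, below which lay 95% of 1027 olfactory receptor genes, a family known from the olfactory epithelium. Above it stood 50 of the 91 potassium channel genes (54.9%), against 13597 of all 19938 genes (68.2%), and the other 41 were near background. The line has no sharp edge here, as 8 genes lay within 0.2 above it and 10 within 0.2 below. Just above it were Kcna10 (7.26), Kcnmb4os1 (7.23) and Kcnq3 (7.21), and just below it Kcnip2 (7.19), Kcng4 (7.17) and Kcnj14 (7.16). With the 99th percentile of olfactory receptors as the line 31 genes were above it, and with the 95th percentile of vomeronasal receptor genes 83 were. Levels were modest, since 16 of the 91 exceeded the median of all genes, 8.47.

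Families differed in how many of their genes were above the line. The share was 78.6% for two-pore-domain genes (11 of 14), 62.5% for calcium- and sodium-activated genes (5 of 8) and 52.9% for voltage-gated genes (18 of 34). Auxiliary subunits or regulators had 7 of 17 above it and inward rectifiers 6 of 15. The small-conductance calcium-activated genes (Kcnn) were above it in 4 of 4 cases, the Kcnq genes in 3 of 3 and the beta subunits of voltage-gated channels (Kcnab) in 3 of 3, whereas 0 of 5 Kcne genes, which encode small single-span partners of voltage-gated channels, were.

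**Figure D1:**
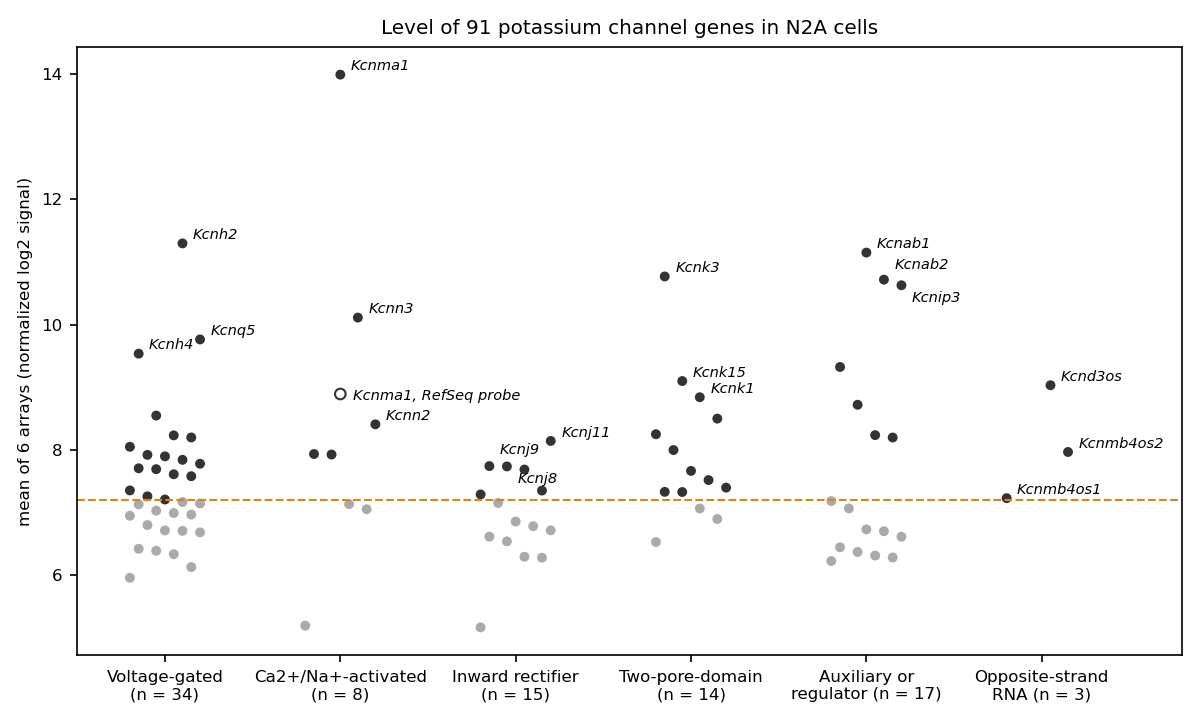
Mean normalized log2 signal over the 6 arrays (y axis) for each of the 91 potassium channel genes, grouped by family (x axis), with genes above the background line (dashed, 7.20) in black and those near background in grey. The highest genes of each family are named, the open circle is the Kcnma1 probe that lists RefSeq transcripts (8.90), and the inward rectifiers are seen to reach no higher than 8.15.

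The signal of a probe depends on its sequence as well as on the transcript, so the order of genes is approximate. Of the neighbours in rank, 87 overlapped in the range of their 6 arrays and 3 did not. The apparent leader was Kcnma1, the pore of the large-conductance calcium-activated channel, at 13.92, 14.01 and 13.95 in shRNA arrays and 14.08, 14.01 and 13.99 in scramble arrays. This level is uncertain, because the 4 accessions annotated for the probe include 0 RefSeq transcripts of Kcnma1. The gene's other probe lists 17 RefSeq transcripts of Kcnma1 and read 8.35, 8.98 and 8.70 in shRNA arrays and 9.07, 9.05 and 9.23 in scramble arrays, a mean of 8.90 that would rank 12th. Probes of Kcnk15 and Kcnmb4os2 also list no RefSeq transcript of their gene.

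Leaving that probe aside, the highest signal belonged to Kcnh2, the pore of the ERG channel that shapes late repolarization. It read 11.07, 11.32 and 11.18 in shRNA arrays and 11.18, 11.45 and 11.59 in scramble arrays. Kcnab1, a beta subunit that speeds inactivation of some voltage-gated channels, followed at 11.13, 11.25 and 11.04 in shRNA arrays and 11.13, 11.05 and 11.32 in scramble arrays. These 2 genes overlapped in range, whereas Kcnab1 lay apart from Kcnk3, the next in rank. Kcnk3, an acid-sensitive leak channel, read 10.74, 10.79 and 10.68 in shRNA arrays and 10.73, 10.79 and 10.91 in scramble arrays. Kcnab2, another beta subunit, overlapped Kcnk3, with 10.38, 10.76 and 10.50 in shRNA arrays and 10.71, 10.95 and 11.03 in scramble arrays.

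Kcnip3, a calcium-binding partner of the Kcnd channels that also acts as a transcriptional repressor, had the widest spread of the 91 genes, 2.09 over the 6 arrays. It read 9.28, 11.17 and 10.94 in shRNA arrays and 9.91, 11.12 and 11.37 in scramble arrays. Replicate 1 was the low array under both constructs, and the remaining 4 arrays lay between 10.94 and 11.37. The difference between groups was -0.34 (SE 0.59), and without shRNA replicate 1 it was 0.26. That removal left the low scramble array in, and without both arrays numbered 1 the difference was -0.19. The other genes among the 12 highest were Kcnn3 (mean 10.12), Kcnq5 (9.77), Kcnh4 (9.54), Kcnmb2 (9.33), Kcnk15 (9.10) and the opposite-strand transcript Kcnd3os (9.04). Kcnh4 encodes a slowly opening voltage-gated pore, Kcnmb2 an inactivating beta subunit of the large-conductance calcium-activated channel, and Kcnk15 a relative of Kcnk3. Kcnd3 itself, a pore of transient currents, was near background at 7.03, a level read by another probe. Inward rectifiers were lower, with Kcnj11, the pore of the ATP-sensitive channel, highest at 8.35, 8.06 and 8.27 in shRNA arrays and 7.99, 8.29 and 7.92 in scramble arrays.

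**Figure D2:**
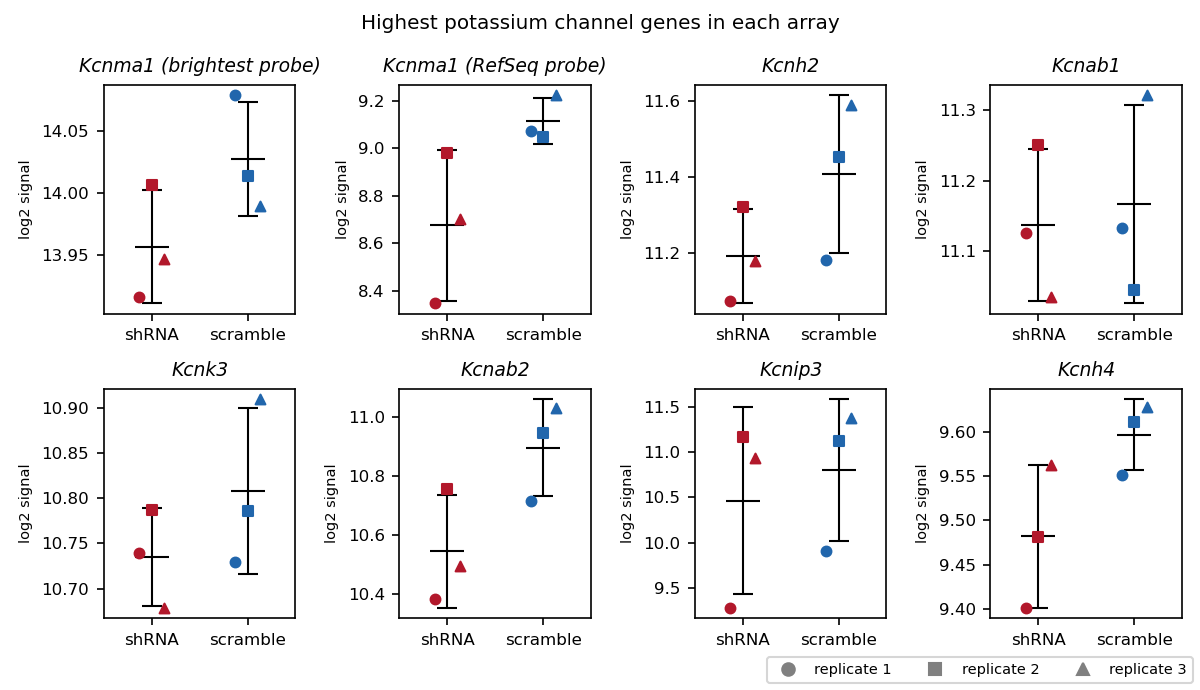
Normalized log2 signal (y axes, each with its own range) in every array for genes among the highest, with Pbcas4 shRNA at left and scramble at right; points are arrays, shaped by replicate number, and bars show the mean and SD of 3 arrays. Both Kcnma1 probes are drawn, Kcnip3 shows the low replicate 1 under both constructs (9.28 and 9.91), and the Kcnma1 probe that lists RefSeq transcripts is the panel whose groups do not overlap.

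The question of the design was which transcripts differ after knockdown of Pbcas4. By limma's criterion, a log2 difference over 0.5 in size at an adjusted p under 0.05, 0 of the 91 potassium channel genes were called, as were 0 of all 19938 genes (0.0%), and the lowest adjusted p among the 91 was 0.348. With array weights added to limma, which gave most weight to shRNA replicate 3 and scramble replicate 2, 2 were called, Kcnn3 and Kcnk5, but so were 6.62% of all genes, a larger share than 2 of 91. At an unadjusted p under 0.05, 6 genes were lower and 1 was higher in shRNA, the first near and the second below the shares over all genes, 5.46% lower and 6.22% higher. With each array centred on its median this split was 4 lower and 2 higher, against 3.68% and 7.69% of all genes. Differences were small, under 0.1 in size in 59 of the 91 genes and over 0.5 in 2. Over all 19938 genes these counts were 9875 and 1092.

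Among the 50 genes above the line, shRNA and scramble arrays did not overlap in 9, of which 7 were lower and 2 higher in shRNA. Over all genes above the line these shares were 9.61% lower and 11.4% higher, so that the potassium channel genes lay a little above the first share and below the second. After centring, the lower count was 4 and the higher 2, but the shares over all genes were not counted after centring. These 2 counts therefore have no share to be compared with. The mean was lower in shRNA for 36 of the 50, against 48.8% of all genes above the line, but this split followed the scaling: after quantile normalization or centring each array on its median it was 26 of 50 (52.0%), against 46.5% and 42.7% of all genes. The median difference over the 91 genes was -0.02, compared with 0.00 over all genes. The p-values measure the spread between 3 arrays a group, and the smallest value an exact permutation test of 3 against 3 arrays allows is 0.1, which each gene with non-overlapping arrays reached.

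The widest difference was that of Kcnn3, the pore of a small-conductance calcium-activated channel that underlies the afterhyperpolarization of many neurons. It read 9.25, 10.16 and 9.58 in shRNA arrays and 10.23, 10.74 and 10.73 in scramble arrays. The groups did not overlap, though the highest shRNA array and the lowest scramble array, replicate 1, were 0.07 apart. The log2 difference was -0.90 (SE 0.26), a signal 0.535 times that of scramble, with a limma adjusted p of 0.401. Leaving out arrays in turn and other processing kept it between -1.15 and -0.70.

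Among the other small-conductance genes, Kcnn2 read 8.27, 8.83 and 8.55 in shRNA arrays and 8.36, 8.04 and 8.43 in scramble arrays, and the groups overlapped. Kcnn1 overlapped likewise, with a difference of -0.23 (SE 0.14), as did Kcnn4, the intermediate-conductance pore, with 0.07 (SE 0.09). The 4 genes of the family thus did not share a direction. The Kcnma1 probe that lists RefSeq transcripts differed by -0.44 (SE 0.17, limma adjusted p = 0.463) with no overlap of arrays, while the brighter probe differed by -0.07 (SE 0.08).

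Kcnk5, an alkaline-activated leak channel, had the widest difference in the other direction. It read 8.32, 8.25 and 8.47 in shRNA arrays and 8.12, 7.50 and 7.35 in scramble arrays, which did not overlap. The difference was 0.69 (SE 0.20), a 1.61-fold signal in shRNA, with a limma adjusted p of 0.401. Scramble replicate 1 lay nearest the shRNA arrays, whose mean exceeded it by 0.23, and the cell division genes were high in the same array. The part of that array's makeup in the Kcnk5 value was not tested.

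The promoters of Kcnn3 and Kcnk5 are shown because these genes had the widest difference in each direction, and that of Kcnh2 because it was the highest gene with a RefSeq-backed probe. Each holds 300 bases around the first listed start, from RefSeq on GRCm38.p6, written along the gene's strand. Capitals mark the GC box (GGGCGG), the TATA box (TATAAA) and the CCAAT box (CCAAT), searched on both strands.
Kcnn3, chr3:89519914-89520213 (plus strand): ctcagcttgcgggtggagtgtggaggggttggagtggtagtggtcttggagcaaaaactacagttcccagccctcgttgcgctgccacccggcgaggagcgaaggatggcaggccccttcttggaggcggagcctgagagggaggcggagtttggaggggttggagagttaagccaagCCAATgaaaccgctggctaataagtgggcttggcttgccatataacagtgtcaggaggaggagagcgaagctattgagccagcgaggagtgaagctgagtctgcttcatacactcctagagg
Kcnk5, chr14:20181733-20182032 (minus strand): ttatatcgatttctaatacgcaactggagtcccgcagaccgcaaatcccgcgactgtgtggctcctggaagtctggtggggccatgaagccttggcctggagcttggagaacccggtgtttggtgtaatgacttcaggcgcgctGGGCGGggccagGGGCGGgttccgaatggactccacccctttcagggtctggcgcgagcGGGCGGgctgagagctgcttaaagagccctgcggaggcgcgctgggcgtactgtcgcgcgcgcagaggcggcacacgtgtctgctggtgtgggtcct
Kcnh2, chr5:24329542-24329841 (minus strand): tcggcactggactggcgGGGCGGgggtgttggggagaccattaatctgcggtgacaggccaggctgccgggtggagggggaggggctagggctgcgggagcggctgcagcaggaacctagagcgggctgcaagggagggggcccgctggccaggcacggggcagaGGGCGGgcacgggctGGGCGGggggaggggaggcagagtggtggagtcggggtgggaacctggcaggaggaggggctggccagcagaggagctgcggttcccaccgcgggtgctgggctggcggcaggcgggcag
The Kcnn3 window held 1 CCAAT box and 0 GC boxes, with 11 CG dinucleotides. The Kcnk5 window held 3 GC boxes and 26 CG dinucleotides, and that of Kcnh2 3 GC boxes and 19 CG dinucleotides. None of these 3 windows held a TATA box.

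Promoter sequences were listed for 37 of the genes above the line and 33 of those near background. A GC box occurred in 56.8% of the promoters of potassium channel genes above the line and in 45.5% of those near background, against 35.9% of all 27025 promoters. A TATA box occurred in 5.41% and 3.03% of the same 2 sets, against 14.2% of all promoters. The CCAAT box occurred in 21.6% of the promoters of genes above the line, in 42.4% of those near background and in 37.9% of all. The median share of G and C was 61.0% above the line, 57.7% near background and 52.7% over all promoters. These are descriptions of the windows and were not tested.

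Among the other two-pore-domain genes above the line, Kcnk4 and Kcnk1 had arrays that did not overlap, with lower values in shRNA. Kcnk4, a mechanically gated leak channel, read 8.12, 8.19 and 8.20 in shRNA arrays and 8.28, 8.36 and 8.38 in scramble arrays, a difference of -0.17 (SE 0.08). Kcnk1, a weakly conducting leak channel, read 8.76, 8.73 and 8.80 in shRNA arrays and 8.81, 8.92 and 9.04 in scramble arrays, a difference of -0.16 (SE 0.09). The nearest values of Kcnk1 were 0.02 apart, and without scramble replicate 3 its difference was -0.10. Neither gene had an unadjusted limma p under 0.05. Kcnk10, a mechanically sensitive leak channel near background, was picked out after its values were seen and did not overlap in the other direction, with a difference of 0.19 (SE 0.09).

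Of the voltage-gated genes above the line, 3 had non-overlapping arrays, and in these shRNA was lower. Kcnd1, a pore of transient A-type currents, read 7.77, 7.84 and 7.89 in shRNA arrays and 8.16, 8.35 and 8.31 in scramble arrays. These groups were 0.27 apart at their nearest arrays, the widest such gap among the named potassium channel genes. Its difference was -0.44 (SE 0.09), with a limma unadjusted p of 0.00208 and an adjusted p of 0.348.

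Kcnq5 and Kcnq3 encode pores of the M-current, a slow brake on repetitive firing. Kcnq5 read 9.17, 9.81 and 9.61 in shRNA arrays and 9.98, 9.92 and 10.12 in scramble arrays, a difference of -0.48 (SE 0.17, limma adjusted p = 0.45) that was -0.29 without shRNA replicate 1. Kcnq3, close to background, read 7.21, 7.07 and 7.17 in shRNA arrays and 7.22, 7.35 and 7.25 in scramble arrays, a difference of -0.12 (SE 0.09). Kcnq1, a partner of Kcne subunits, overlapped between groups with a difference of -0.05 (SE 0.09). Kcnh2 had a difference of -0.22 (SE 0.13) with overlapping arrays, which was -0.13 without scramble replicate 3 and -0.33 without scramble replicate 1. Kcnh3, a slowly opening pore like Kcnh4, overlapped too, with -0.37 (SE 0.16). Kcna4, a rapidly inactivating pore, was picked out after its values were seen: it was near background, at 6.28, 6.63 and 6.55 in shRNA arrays and 6.88, 7.02 and 6.91 in scramble arrays (difference -0.45, SE 0.11, limma adjusted p = 0.383).

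Among inward rectifiers, Kcnj12, a strong rectifier, read 7.61, 7.41 and 7.67 in shRNA arrays and 7.81, 7.78 and 7.86 in scramble arrays, which did not overlap (difference -0.26, SE 0.10). Kcnj9, a subunit of channels opened by G proteins, read 7.79, 7.80 and 7.77 in shRNA arrays and 7.68, 7.70 and 7.73 in scramble arrays. It was the other gene above the line that was higher in shRNA with no overlap, by 0.08 (SE 0.07). Auxiliary genes above the line had no case without overlap. Kcnab2 came nearest, with a difference of -0.35 (SE 0.14, limma adjusted p = 0.469), and Kcnab1 differed by -0.03 (SE 0.11). Kcnip2, an auxiliary gene just below the line, did not overlap and was lower in shRNA (difference -0.21, SE 0.10, limma adjusted p = 0.531).

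**Figure D3:**
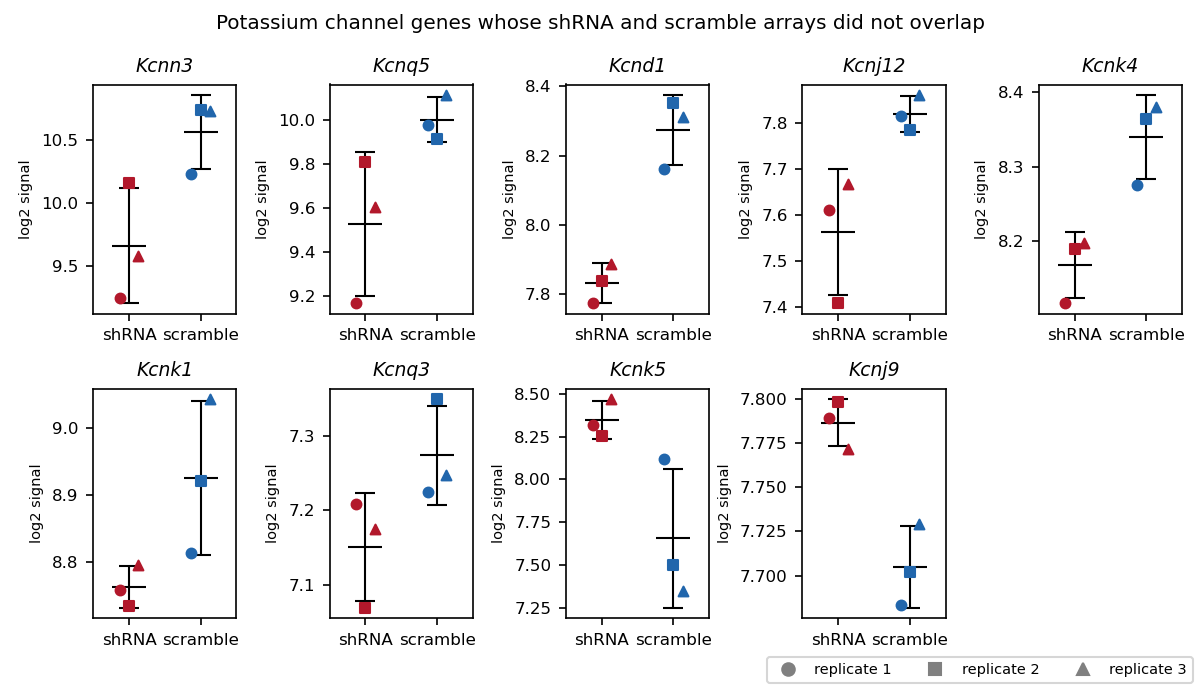
Normalized log2 signal (y axes, each with its own range) in every array for the 9 potassium channel genes above background whose groups did not overlap, with Pbcas4 shRNA at left and scramble at right; points are arrays, shaped by replicate number, and bars show the mean and SD of 3 arrays. The first 7 are lower in shRNA and the last 2, Kcnk5 and Kcnj9, higher, and scramble replicate 1 (circle) is the scramble array nearest the shRNA arrays for 6 of the 9. The share of all genes for which it is nearest was not counted. It was the lowest scramble array for 44.6% of all genes above the line.

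Genes near background varied less between groups, with differences from -0.45 to 0.19. Of these 41 genes, 29 differed by less than 0.1 and 1 by more than 0.25, whereas 9 of the 50 genes above the line did. The shRNA replicate 2 array was the lowest of its group for 32 of the 41 near-background genes, as it was for 58.1% of all genes near background, and for 31 of the 50 above the line, against 35.4% of all genes there. Scramble replicate 1 was the lowest of its group for 22 of the 41 and 35 of the 50, against 50.6% and 44.6% of all genes. Within pairs of arrays of the same number, shRNA was lower in 3 of 3 pairs for 20 of the 91 genes and higher in 3 of 3 for 7, against 18.0% and 19.4% of all genes. The split followed the scaling in part, being 18 and 11 genes after quantile normalization (17.5% and 22.2% of all genes) and 18 and 12 after centring (14.3% and 22.9%).

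**Figure D4:**
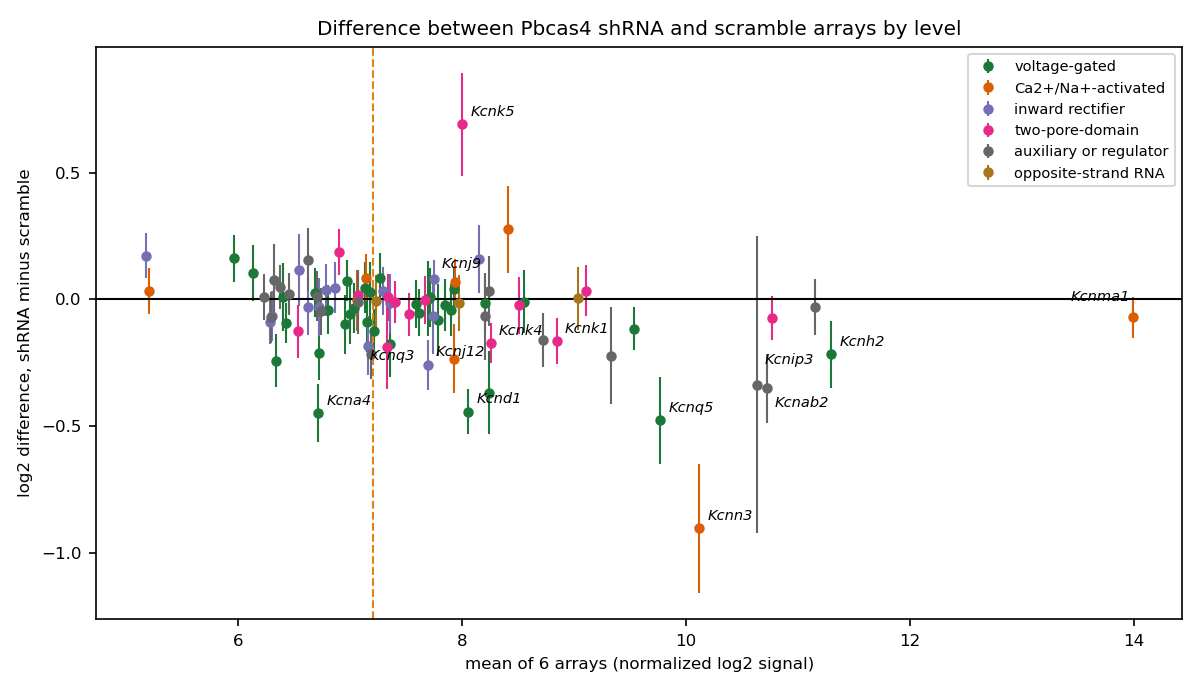
Log2 difference of shRNA minus scramble (y axis, points with limma's SE) against the mean of the 6 arrays (x axis, normalized log2 signal) for the 91 potassium channel genes, coloured by family, with the background line dashed. Most points lie within 0.1 of no difference, and Kcnn3 (-0.90) and Kcnk5 (0.69) are the 2 beyond 0.5.

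Proteins that work with these channels were taken from a list of 18 partner genes, of which 17 were measured and 13 were above the line. At an unadjusted p under 0.05, 3 were lower and 1 was higher in shRNA, beside 5.46% and 6.22% of all genes, and limma called 0 of the 17. Lgi1, a secreted protein found with voltage-gated channel complexes, read 11.15, 11.14 and 10.59 in shRNA arrays and 11.48, 12.15 and 12.02 in scramble arrays, a difference of -0.92 (SE 0.23). Hcn2, a channel that opens on hyperpolarization and carries mixed cations, read 10.62, 11.14 and 10.91 in shRNA arrays and 10.24, 10.04 and 10.16 in scramble arrays, a difference of 0.74 (SE 0.15, limma adjusted p = 0.348). The others were Lrrc55, an auxiliary subunit of large-conductance channels, at -0.35 (SE 0.08), and Dpp6, a partner of the Kcnd pores, at -0.43 (SE 0.16). Of 11 pump and cotransporter genes 7 were measured and 7 were above the line. The pump subunit Atp1b2 (difference -0.39, SE 0.14) was the 1 gene lower at an unadjusted p under 0.05, beside 5.46% of all genes. Limma called 0 of the 7.

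Of the 10 sympathetic neuroblast markers measured, 5 were lower in shRNA at an unadjusted p under 0.05, beside 5.46% of all genes, and limma called 0. Among these 5 were the granule protein Chgb (-1.01, SE 0.11) and Th, the first enzyme of catecholamine synthesis (-1.08, SE 0.25). The other 5, Chga, Hand2, Tubb3, Phox2a and Gata3, had differences between -0.50 and 0.05. Any part of these markers in the Kcnn3, Kcnq5 and Kcnd1 values was not tested.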

How the data were processed

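RNA from N2A cells was hybridised to Affymetrix Mouse Gene 1.0 ST arrays. The authors deposited log2 values, 1 for each probe on each array, already brought to a shared scale by a method not given in the sources used here, and no further normalization was applied. Of 35556 probes, 21789 carried 1 gene symbol, 94 of them naming the 91 genes reported; 3 genes had 2 probes, and the one with the highest mean was used. 1 symbol is not reported here. All probes were fitted with limma 3.58.1 in R 4.3.3 (lmFit, eBayes; group term only, two-sided tests). P-values were adjusted by Benjamini-Hochberg across the whole table, after the fit was tested on simulated data. The adjusted p threshold follows the methods. Their other criterion was a variance above 0.5 between conditions, and it was read here as a log2 difference, which is not the same measure. The paper reports differentially expressed genes under its own criteria, so the counts called here are not the paper's. The cause of that difference was not tested.

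The genes named by rule are the 12 highest, those above background without overlap of arrays, the highest of each family and the 3 on each side of the line. Kcnd3, Kcnh3, Kcnn1, Kcnn2, Kcnn4, Kcnq1 and Kcnmb4os2 were named outside this rule, as were Kcnk10 and Kcna4. Members and lists were chosen with earlier results of these data known. After each group's mean was taken off, arrays of the same number correlated at 0.291, 0.137 and 0.103, each over 0.1, although shRNA replicate 2 with scramble replicate 3 reached 0.199. Equal numbers were treated as pairs by the first values, with a replicate block as an alternative. The main fit leaves the pairs out, and neither the labels nor the methods say whether equal numbers mark a shared day. Other alternatives were quantile normalization, centring, array weights, a trended and robust variance, filters, a mean of probes, other background lines and leaving out arrays. Arrays give no counts, and their number limits the precision.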

Additional observations from a re-analysis of the deposited data

How the results depend on the processing

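With 3 arrays a group, differences near the spread between arrays cannot be told from 0, and the order of dim genes is not resolved. The count called by limma was 0 under the other alternatives run, including a replicate block and each array left out, but 2 with array weights, Kcnn3 (-1.08, adjusted p = 0.0180) and Kcnk5 (0.91, adjusted p = 0.0175), with 6.62% of all genes called; the cause was not tested. The weight of shRNA replicate 3 was 5.32, that of scramble replicate 2 was 2.39, and the remaining arrays had 0.353 to 0.875. At an unadjusted p under 0.05, array weights gave 12 lower and 5 higher genes (15.1% and 17.5% of all genes), the replicate block 8 lower and 1 higher (7.35% and 7.2%), and centring 4 lower and 2 higher (3.68% and 7.69%). The block changed no call. Leaving out each array gave 3 to 8 lower, 3 without scramble replicate 3 (3.13% of all genes) and 8 without scramble replicate 1 (8.03%). It gave 2 higher without shRNA replicate 1 (5.88% of all genes) and 2 without shRNA replicate 2 (3.91%). Without any of the other arrays 1 was higher (2.44% to 11.4% of all genes). Genes above background numbered 31 with the 99th percentile of olfactory receptors and 83 with the 95th percentile of vomeronasal receptors. Genes above the line lower without overlap numbered 8 with the Kcnma1 probe that lists RefSeq transcripts, beside 9.61% of all genes above the line. They numbered 4 after centring, where the share over all genes was not counted. Both alternatives were added after seeing the data.

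Of the 25 genes named by rule, 19 kept the sign of their log2 difference under the alternatives run. Leaving out each array moved Kcnip3 between -0.78 (without scramble replicate 1) and 0.26 (without shRNA replicate 1), Kcnab1 between -0.0904 and 0.0477, Kcnk15 between -0.0175 and 0.10, Kcnd3os between -0.076 and 0.0905, Kcnmb4os1 between -0.092 and 0.0414 and Kcng4 between -0.0512 and 0.13. Leaving out 1 array moved Kcnj11 from 0.16 to between 0.0868 and 0.27, Kcnj14 from -0.18 to -0.0942 and Kcnmb2 from -0.22 to -0.0118, the last 2 without scramble replicate 1 (Kcnmb2 was at -0.37 without scramble replicate 3), and Kcnh4 from -0.12 to -0.075 without shRNA replicate 1. Without both arrays numbered 1, an alternative added later, Kcnk15 was at -0.0536, Kcnd3os at -0.14, Kcnmb4os1 at 0.0053 and Kcng4 at -0.0905. Kcnip3 kept the sign of the main fit there, at -0.19. Kcnmb4os1 was at 0.0033 after quantile normalization and 0.0185 after centring. The cause of these sign changes was not tested.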
